A study of Mus musculus with 8 samples.

Results

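The genes described here are 10 known transcriptional targets of the transcription factor STAT5, taken by symbol from a table of 56748 mouse genes: the feedback inhibitors Cish, Socs1, Socs2, Socs3 and Sh2b3, the kinases Pim1, Pim2 and Pim3, the cytokine Osm and the repressor Bcl6. Of these, 8 were among the 11818 genes tested, while Pim3 and Bcl6 lay below the expression filter, which asked that 2 or more libraries reach 1 FPKM. FPKM is the number of fragments counted on a gene, scaled for the length of the gene and for the depth of the library. The libraries were made from 32D cells, an interleukin-3 (IL-3) dependent mouse bone marrow line that had been given murine Jak2WT or Jak2V617F, the constitutively active kinase of myeloproliferative neoplasms. In each background, glucose transporters GLUT1 (Slc2a1) and GLUT3 (Slc2a3) were either intact (GLUT1/3 WT) or removed together with CRISPR-Cas9 (GLUT1/3 dKO). Each of the 4 groups, Jak2WT GLUT1/3 WT, Jak2WT GLUT1/3 dKO, Jak2V617F GLUT1/3 WT and Jak2V617F GLUT1/3 dKO, held 2 libraries, and each library was 1 clone grown from a single cell, numbered 1 or 3. All cells, controls included, had spent 24 h in RPMI-1640 that held glucose at 5 mM, glutamine at 1 mM, 10% serum and IL-3 at 2 ng/ml, so that a ligand acting through JAK2 was present in every group.

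Cytokine receptors such as those for IL-3 and erythropoietin carry JAK2, which phosphorylates STAT5A and STAT5B. The STAT5 dimers then enter the nucleus and bind paired half-sites of DNA near their target genes. Among the targets, CIS (Cish) and the SOCS proteins dampen the same receptors, either by blocking the kinase or the docking sites or, through their SOCS box, by recruiting a ubiquitin ligase, and the adaptor LNK (Sh2b3) restrains JAK2 itself. The PIM kinases are serine/threonine kinases that are active as soon as they are made and favor survival, translation and cell cycle entry, so the level of their mRNA bears directly on their abundance.

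Reads on genes ranged from 16846011 to 48884329 per library. Slc2a1 fell from 44.7 to 64.0 FPKM in the GLUT1/3 WT clones to 9.17 to 17.3 FPKM in the dKO clones, and Slc2a3 from 91.9 to 198 FPKM to 16.0 to 49.5 FPKM, in the direction of the labels, although the Slc2a3 difference in Jak2WT did not pass (-1.71, limma adjusted p = 0.0612). Jak2, whose reads cannot be divided between the endogenous gene and the introduced copy, stood at 218 to 258 FPKM in Jak2WT and at 139 to 165 FPKM in Jak2V617F. The cell type in the labels is myeloblast-like, yet of 9 myeloid progenitor markers only Prtn3 and Spi1 reached 1 FPKM, with Cebpa and Kit listed at 0 in all 8 libraries and Mpo, Elane and Ctsg close to 0. The summed level of 9 erythroid markers differed between the groups, at 94.0 to 112 FPKM in Jak2WT GLUT1/3 WT, 246 to 291 FPKM in Jak2WT GLUT1/3 dKO, 553 to 910 FPKM in Jak2V617F GLUT1/3 WT and 2582 to 4679 FPKM in Jak2V617F GLUT1/3 dKO, with Hba-a1 and, in Jak2V617F GLUT1/3 dKO, Hbb-bs as the leading genes. Of 6 mast cell and basophil markers only Cpa3 reached 1 FPKM, and it carried most of the list's sum of 51.3 to 102 FPKM in Jak2WT against 0.338 to 2.12 FPKM in Jak2V617F. Lists of T cell, B cell and stromal markers summed to less than 1 FPKM in each library, the highest value being 0.712 FPKM for B cell genes. The part of these differences in the results below was not tested, and in bulk RNA fewer cells of a type and less RNA per cell cannot be told apart.

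The DNA element bound by STAT5 dimers has the form TTCNNNGAA, in which N is any base, and it reads the same on both strands. Reference sequence from 250 bases before to 50 bases after the start of transcription was at hand for 8 of the 10 genes, in 10 windows of 300 bases (RefSeq, GRCm38.p6), and the letters occurred in the windows of 3 of them, Cish, Socs3 and Bcl6. Among all 32851 windows of this kind, 8.30% held at least 1 match. The windows of Socs1, Pim1, Pim2, Pim3 and Sh2b3 held none, and the form with 1 more base in the spacer occurred in 6.95% of all windows and in those of none of these genes. Stretches that hold matches, 1 for each of the 3 genes, are shown because they hold the element that STAT5 itself binds, with the matches in capitals. Cish had 2 adjacent matches, which began at base 1 and base 12 of the transcribed strand counted from the start as 1 (chr9:107296539-107296688, forward strand).
Cish: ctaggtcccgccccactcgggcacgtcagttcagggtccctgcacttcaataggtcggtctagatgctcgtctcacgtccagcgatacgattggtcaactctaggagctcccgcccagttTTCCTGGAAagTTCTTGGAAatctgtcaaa
Socs3 had 1 match, beginning 154 bases before the start (chr11:117969367-117969616, reverse strand).
Socs3: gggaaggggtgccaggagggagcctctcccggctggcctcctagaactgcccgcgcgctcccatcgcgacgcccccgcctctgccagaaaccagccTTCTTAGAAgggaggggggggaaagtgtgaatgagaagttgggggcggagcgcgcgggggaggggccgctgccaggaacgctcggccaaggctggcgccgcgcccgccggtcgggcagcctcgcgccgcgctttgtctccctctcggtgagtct
Bcl6 had 2 starts, 1 with a single match that is not shown and the one shown, with 3 matches that began 168, 122 and 88 bases before it (chr16:23981284-23981533, reverse strand).
Bcl6: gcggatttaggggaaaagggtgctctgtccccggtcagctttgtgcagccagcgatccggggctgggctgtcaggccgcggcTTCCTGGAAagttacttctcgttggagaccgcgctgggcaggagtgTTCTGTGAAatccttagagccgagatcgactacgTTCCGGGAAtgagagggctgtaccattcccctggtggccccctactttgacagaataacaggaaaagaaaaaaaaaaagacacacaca
These letters are a description of the reference. Genes with and without a match in these windows were among those that passed a test between the groups, and Bcl6, with matches, was not measurably expressed.

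Among GLUT1/3 WT clones, Jak2V617F had 1.63-fold more Pim1 and 2.45-fold more Pim2 than Jak2WT in mean FPKM, and 12.7-fold less Socs1. The Socs1 fold rests on 9 and 27 reads in Jak2V617F GLUT1/3 WT, and was 9.30 without clone 1 of that group and 20.0 without clone 3. These were the 3 of the 8 tested targets past the threshold, 2 higher (15.3% of all genes) and 1 lower (14.9%), in a comparison in which 30.3% of all genes passed. Loss of GLUT1/3 in Jak2V617F was accompanied by the opposite movement of these 3 genes, with lower Pim1 and Pim2 and a 6.03-fold higher Socs1, and by higher Cish, Socs3 and Osm. Both comparisons use the 2 Jak2V617F GLUT1/3 WT clones with opposite sign, so part of this reversal can be built in. Without the same clones the Socs1 fold was 4.41 and 9.51. That gave 6 of 8 targets past the threshold, 4 higher (13.7% of all genes) and 2 lower (16.2%), where 29.9% of all genes passed. The count of 6 fell to 1, Socs3, without Jak2V617F GLUT1/3 WT clone 1, to 2, Socs1 and Pim1, without Jak2V617F GLUT1/3 WT clone 3, and to 2, Pim1 and Pim2, without Jak2V617F GLUT1/3 dKO clone 1.

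For loss of GLUT1/3 in Jak2WT, Osm passed the threshold, 1 of 8 targets higher and 0 lower, against 7.62% of all genes higher, 6.06% lower and 13.7% either way. Between the dKO clones of the backgrounds Osm passed, 1 of 8 lower and 0 higher, against 9.96% of all genes lower, 7.12% higher and 17.1% either way. At an unadjusted p under 0.05, 4 and 3 targets passed in these 2 comparisons, so that the other targets are not shown to be unaffected. Without Jak2V617F GLUT1/3 dKO clone 3 the counts were 3 and 4, without clone 1 of that group the count in Jak2WT was 3, and they were 0 without Jak2WT GLUT1/3 WT clone 3 and without Jak2WT GLUT1/3 dKO clone 1, respectively. The interaction, a direct test of whether the dKO difference depended on the background, passed for Pim1 in the negative direction (5.91% of all genes) and for Socs1 in the positive direction (4.72%), 2 of 8 against 10.6% of all genes in either. Leaving out any 1 clone left 0 interactions past the threshold, except that 1, Pim1, passed without Jak2V617F GLUT1/3 dKO clone 1, and limma voom on recovered reads called 3.

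Throughout, differences are log2 fold changes of FPKM + 1 from 1 limma fit of all groups, adjusted by the Benjamini-Hochberg method over the 11818 genes with a threshold of 0.05, and means are given ± SD with n = 2 clones per group. The median difference of the 8 targets was 0.02 in Jak2V617F against Jak2WT among GLUT1/3 WT clones, where that of all genes was 0.01, and 0.01 against -0.02 among dKO clones. For dKO against GLUT1/3 WT it was 0.23 in Jak2WT, against 0.01 for all genes, and 0.51 in Jak2V617F, against -0.02. Clones of the compared groups did not overlap for 7 of 8 targets in the first comparison (69.4% of all genes), 4 in the second (60.6%), 6 in the third (66.2%) and 7 in the fourth (64.3%). Comparisons that share a group also share its clones, so they are not independent of each other.

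**Figure D1:**
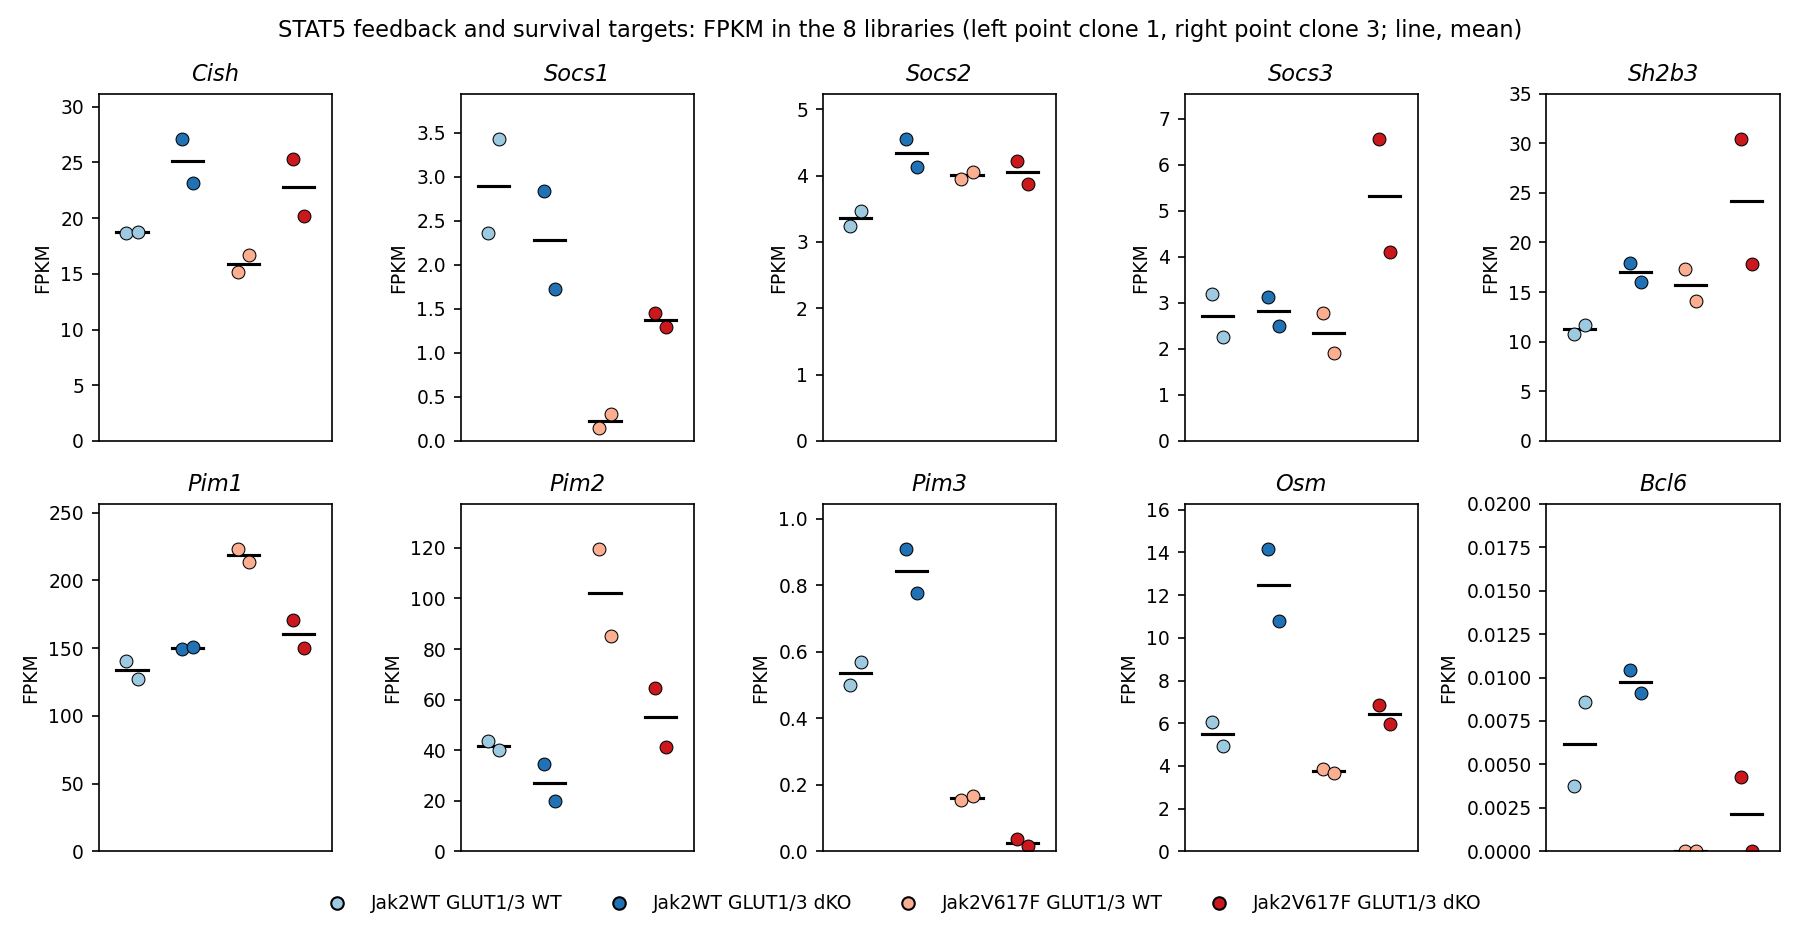
Each panel plots FPKM of 1 target on a linear axis from 0, with the 4 groups from left to right, 1 point per clone (clone 1 left, clone 3 right) and a line at the group mean. Pim1 and Pim2 peak in Jak2V617F GLUT1/3 WT, where Socs1 is lowest at 0.145 and 0.311 FPKM, and Osm is highest in Jak2WT GLUT1/3 dKO at 14.2 and 10.8 FPKM.

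**Figure D2:**
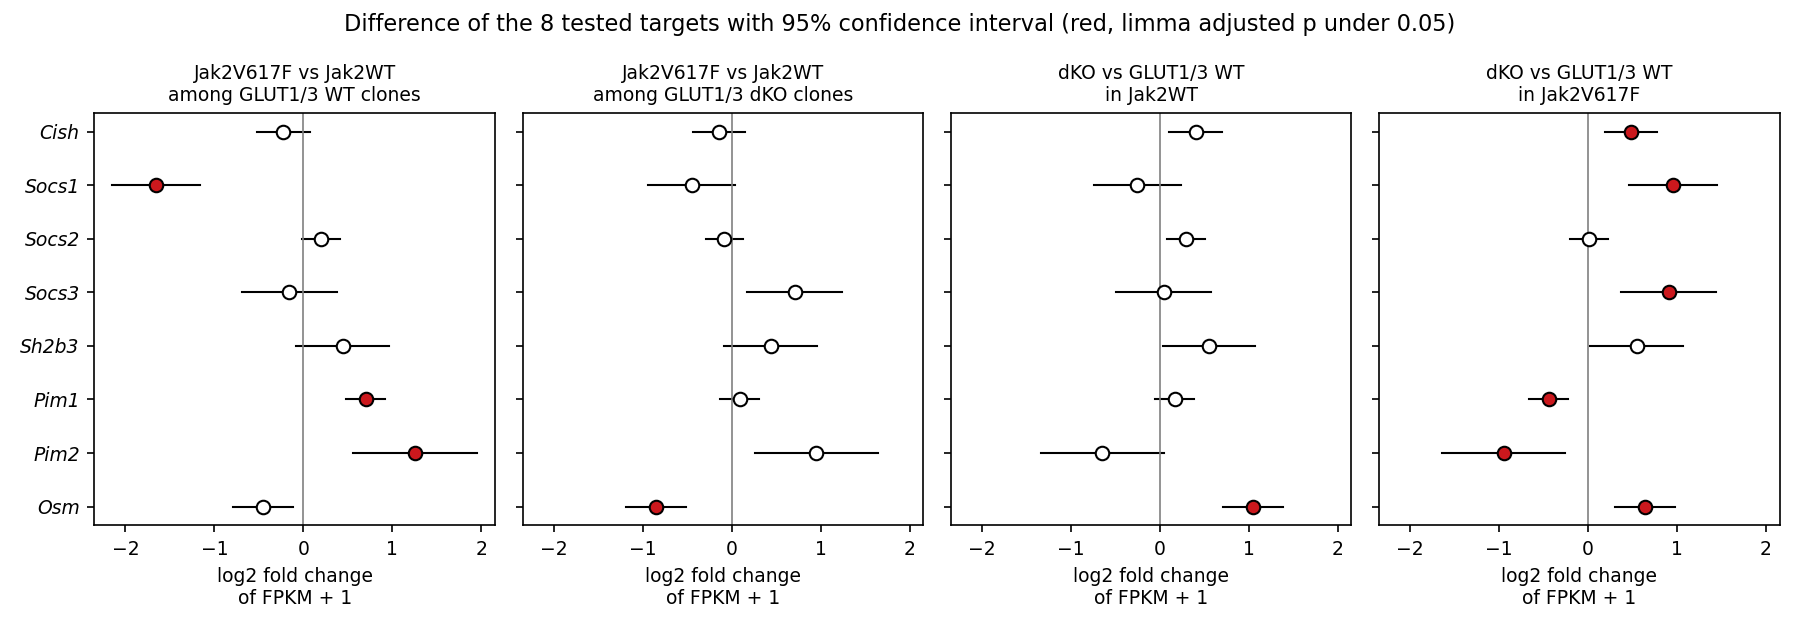
Points are log2 fold changes of FPKM + 1 for the 8 tested targets in 4 comparisons, with 95% confidence intervals from limma, and red points passed the adjusted threshold. Socs1 at -1.66 and Pim2 at 1.26 mark the ends of the first panel, and 6 of 8 points are red in the last.

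Socs1 encodes the SOCS protein that inhibits the JAK catalytic domain directly. In the deposited table it spans 10600104 to 10603400 on the reverse strand of chromosome 16 (mm39). In Jak2WT it was measured at 2.36 and 3.43 FPKM with GLUT1/3 WT and at 2.84 and 1.73 FPKM with dKO. In Jak2V617F it stood at 0.145 and 0.311 FPKM with GLUT1/3 WT, which rest on 9 and 27 reads, and at 1.45 and 1.30 FPKM with dKO. Both Jak2V617F GLUT1/3 WT clones therefore lay below all 6 other clones, and the Jak2V617F dKO clones lay between them and Jak2WT without overlapping either Jak2WT group. The difference between the backgrounds in GLUT1/3 WT clones was -1.66 ± 0.21 (SE, limma adjusted p = 0.00200), a value on the log2(FPKM + 1) scale, which understates a fold at so low a level. It passed under all 19 alternative settings, with adjusted p from 0.0013 to 0.0191. Among dKO clones the difference was -0.45 (limma adjusted p = 0.188).

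In Jak2V617F, dKO clones exceeded GLUT1/3 WT clones in Socs1 by 0.95 ± 0.21 (SE, limma adjusted p = 0.0143), whereas in Jak2WT the clones overlapped and the difference was -0.25 (limma adjusted p = 0.452). The interaction was 1.21 with a 95% interval from 0.51 to 1.90 (limma adjusted p = 0.0447). Over 18 alternatives its adjusted p ran from 0.0147 to 0.143, and it was lost on leaving out any 1 of the 8 clones, with adjusted p between 0.0693 and 0.143. The dKO difference in Jak2V617F was lost without Jak2V617F GLUT1/3 WT clone 1 (adjusted p = 0.0699) and without Jak2V617F GLUT1/3 dKO clone 1 (adjusted p = 0.0563), in a range from 0.00497 to 0.0699 over 19 alternatives.

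Cish, the founding member of the family and a classic early STAT5 target, lies at 107173225 to 107179983 on the forward strand of chromosome 9. It had the highest level per length of the 4 SOCS-type genes. In Jak2WT, the GLUT1/3 WT clones stood at 18.7 and 18.8 FPKM and the dKO clones at 27.1 and 23.2 FPKM. In Jak2V617F, the GLUT1/3 WT clones had 15.1 and 16.7 FPKM and the dKO clones 25.3 and 20.2 FPKM. In each background both dKO clones were above both GLUT1/3 WT clones, with a mean of 22.8 ± 3.62 against 15.9 ± 1.13 FPKM in Jak2V617F. That difference, 0.48 ± 0.13 (SE), passed (limma adjusted p = 0.0256), while the 0.40 ± 0.13 (SE) seen in Jak2WT did not (limma adjusted p = 0.0741), and the interaction was 0.08 with a 95% interval from -0.33 to 0.50. Between the backgrounds, Cish differed by -0.22 in GLUT1/3 WT clones (limma adjusted p = 0.216) and by -0.14 in dKO clones (limma adjusted p = 0.482). The call in Jak2V617F was lost without Jak2V617F GLUT1/3 WT clone 1 (adjusted p = 0.117), Jak2V617F GLUT1/3 WT clone 3 (0.0532) or Jak2V617F GLUT1/3 dKO clone 1 (0.0983), in a range from 0.00516 to 0.117 over 19 alternatives. The difference in Jak2WT passed without Jak2V617F GLUT1/3 dKO clone 1 or without clone 3 of that group (adjusted p = 0.0411 each), in a range from 0.0411 to 0.317.

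Socs3 encodes the inhibitor best known for binding receptors of the gp130 family, and lies at 117856905 to 117860873 on the reverse strand of chromosome 11. It stood at 3.19 and 2.25 FPKM in Jak2WT GLUT1/3 WT, 3.14 and 2.50 FPKM in Jak2WT GLUT1/3 dKO, and 2.78 and 1.90 FPKM in Jak2V617F GLUT1/3 WT. These 6 clones overlapped, and only the Jak2V617F GLUT1/3 dKO clones, at 6.57 and 4.10 FPKM, stood above them. dKO against GLUT1/3 WT gave 0.91 ± 0.23 (SE) in Jak2V617F (limma adjusted p = 0.0231) and 0.04 in Jak2WT (limma adjusted p = 0.923). The interaction of 0.86 did not pass (limma adjusted p = 0.125, from 0.0308 to 0.308 over 18 alternatives), so that the dKO difference was not shown to differ between the backgrounds in this fit. It passed in 3 alternatives, among them limma voom (adjusted p = 0.0386) and voom on genes of at least 10 reads (0.0393). The background difference among dKO clones was 0.71 (limma adjusted p = 0.0764) and passed without Jak2V617F GLUT1/3 dKO clone 3 (adjusted p = 0.0316, range over 19 alternatives 0.0110 to 0.289). The call in Jak2V617F was lost without Jak2V617F GLUT1/3 WT clone 3 (adjusted p = 0.107) and without Jak2V617F GLUT1/3 dKO clone 1 (adjusted p = 0.0969), in a range from 0.00325 to 0.107.

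Socs2, a regulator of growth hormone signaling on chromosome 10 (95221224 to 95253042, reverse strand), passed in no comparison. Clones of Jak2WT had 3.24 and 3.47 FPKM with GLUT1/3 WT and 4.55 and 4.12 FPKM with dKO, and clones of Jak2V617F had 3.95 and 4.06 FPKM with GLUT1/3 WT and 4.21 and 3.88 FPKM with dKO. The Jak2WT GLUT1/3 WT clones were the lowest, and the Jak2V617F groups overlapped each other. The dKO difference in Jak2V617F was 0.01 with a 95% interval from -0.20 to 0.22, whose upper bound is below the differences of Cish, Socs1 and Socs3 there, and in Jak2WT it was 0.29 (limma adjusted p = 0.0703). It also passed in none of its alternatives, where the lowest adjusted p was 0.0551.

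Because FPKM is a level per length, the 4 genes can be set side by side. Their sum ran from 22.0 FPKM in Jak2V617F GLUT1/3 WT clone 1 to 37.6 FPKM in Jak2WT GLUT1/3 dKO clone 1, and Cish made up 67.2% to 73.5% of it in every library. The share of Socs1 was 5.49% to 12.3% in Jak2WT, 0.657% and 1.35% in Jak2V617F GLUT1/3 WT, and 3.87% and 4.39% in Jak2V617F GLUT1/3 dKO. The share of Socs3 reached 17.5% and 13.9% in Jak2V617F GLUT1/3 dKO against 7.93% to 12.6% elsewhere. The share of Socs2 was 18.0% and 17.7% in Jak2V617F GLUT1/3 WT against 11.2% to 13.2% elsewhere. Cish was the leading gene in all 8 libraries, and in Jak2WT its share was 68.0% and 67.2% with GLUT1/3 WT and 72.0% and 73.5% with dKO.

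**Figure D3:**
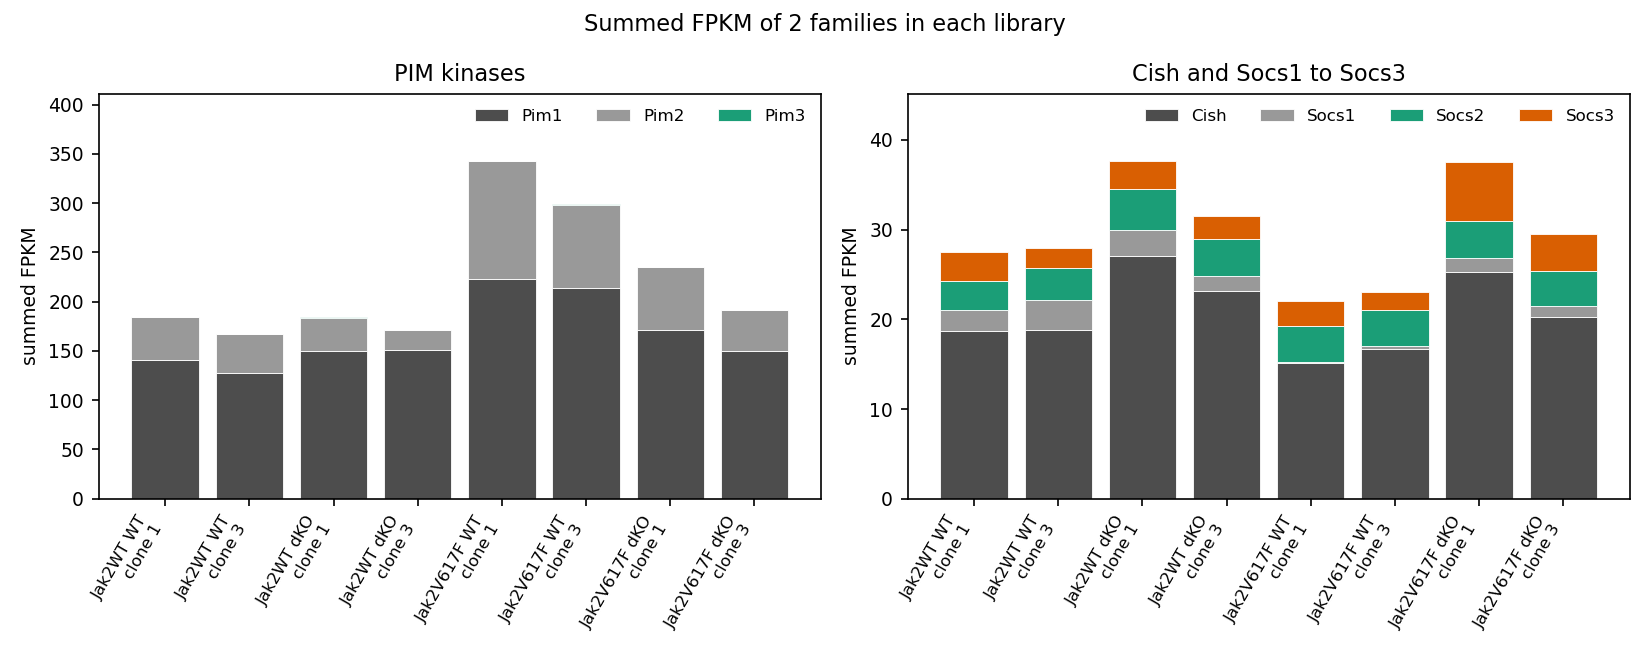
Stacked bars give the summed FPKM of the PIM kinases (left) and of Cish with Socs1 to Socs3 (right) in each of the 8 libraries, on axes from 0. The PIM bars rise from 168 to 185 FPKM in Jak2WT to 299 and 343 FPKM in Jak2V617F GLUT1/3 WT, Pim3 is too low to be visible, and Cish fills over 67% of each bar on the right.

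Sh2b3 encodes LNK, an adaptor whose loss of function is itself found in myeloproliferative neoplasms. It lies at 121953551 to 121975709 on the reverse strand of chromosome 5, where it overlaps genes on the other strand, among them Atxn2, of at most 3.84 FPKM, and the counting strand is not stated. Clones of Jak2WT had 10.8 and 11.7 FPKM with GLUT1/3 WT and 18.0 and 16.0 FPKM with dKO, and clones of Jak2V617F had 17.3 and 14.1 FPKM with GLUT1/3 WT and 30.4 and 17.8 FPKM with dKO. The dKO clones were above the GLUT1/3 WT clones of their background in both cases, by 0.55 each, and the Jak2WT GLUT1/3 WT clones were below all others. With the spread of 24.1 ± 8.90 FPKM in Jak2V617F GLUT1/3 dKO, neither dKO difference passed (limma adjusted p = 0.138 in Jak2WT and 0.103 in Jak2V617F), nor did the background differences of 0.44 in GLUT1/3 WT clones (limma adjusted p = 0.171) and 0.44 in dKO clones (limma adjusted p = 0.222). Without Jak2V617F GLUT1/3 dKO clone 3, the dKO difference in Jak2V617F was 0.92 (adjusted p = 0.00782), that in Jak2WT 0.55 (0.0277), and the background differences 0.44 (0.0291) and 0.81 (0.0141). Without Jak2V617F GLUT1/3 dKO clone 1, those in Jak2WT and among GLUT1/3 WT clones passed (adjusted p = 0.0276 and 0.0291), and that in Jak2V617F was 0.18 (adjusted p = 0.400). Over 19 alternatives the lowest and highest adjusted p were 0.0227 and 0.400 for dKO in Jak2WT, 0.00782 and 0.400 for dKO in Jak2V617F, 0.0291 and 0.472 between GLUT1/3 WT clones and 0.0141 and 0.798 between dKO clones.

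Pim1 was by far the most abundant of the targets. The gene lies at 29709727 to 29715086 on the forward strand of chromosome 17. Clones of Jak2WT had 141 and 127 FPKM with GLUT1/3 WT and 150 and 151 FPKM with dKO, and clones of Jak2V617F had 223 and 214 FPKM with GLUT1/3 WT and 171 and 150 FPKM with dKO. Both Jak2V617F GLUT1/3 WT clones were above all others, and the dKO clones of the backgrounds overlapped. The background difference was 0.70 ± 0.09 (SE) in GLUT1/3 WT clones (limma adjusted p = 0.00241, from 0.00073 to 0.0246 over 19 alternatives, all past the threshold) and 0.09 in dKO clones (limma adjusted p = 0.537). Pim1 was lower with dKO in Jak2V617F, with a difference of -0.44 ± 0.09 (SE, limma adjusted p = 0.0126), and the difference in Jak2WT was 0.17 (limma adjusted p = 0.272).

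The interaction for Pim1 was -0.61 with a 95% interval from -0.92 to -0.30 (limma adjusted p = 0.0331). Its adjusted p ran from 0.0312 to 0.125 over 18 alternatives. Of the 8 fits that left out 1 clone, it passed only without Jak2V617F GLUT1/3 dKO clone 1, and in the others the adjusted p lay between 0.0577 and 0.125. The dKO difference in Jak2V617F was lost without Jak2V617F GLUT1/3 WT clone 1 (adjusted p = 0.0576) and without Jak2V617F GLUT1/3 dKO clone 3 (adjusted p = 0.0513), in a range from 0.0120 to 0.0643 over 19 alternatives.

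Pim2, on the X chromosome (7744501 to 7749671, forward strand), is regulated mainly through its mRNA level and favors translation and survival. In Jak2WT it stood at 43.4 and 39.9 FPKM with GLUT1/3 WT and, with dKO, at 34.3 and 20.0 FPKM. In Jak2V617F the values were 120 and 85.0 FPKM with GLUT1/3 WT and 64.7 and 41.3 FPKM with dKO. The compared groups did not overlap in any of the 4 comparisons. Pim2 was 1.26 ± 0.30 (SE) higher in Jak2V617F among GLUT1/3 WT clones (limma adjusted p = 0.0177) and lower with dKO in Jak2V617F, with a difference of -0.95 ± 0.30 (SE, limma adjusted p = 0.0478). The latter call sat at the threshold, with adjusted p from 0.00684 to 0.211 over 19 alternatives, and 12 of them lost it. Among dKO clones the background difference was 0.95 (limma adjusted p = 0.0686), and in Jak2WT dKO against GLUT1/3 WT gave -0.65 (limma adjusted p = 0.182). The interaction was -0.30 with a 95% interval from -1.28 to 0.68. The call between the backgrounds was lost without Jak2V617F GLUT1/3 WT clone 1 (adjusted p = 0.0949), Jak2WT GLUT1/3 WT clone 1 (0.0669) or Jak2WT GLUT1/3 WT clone 3 (0.0885), in a range from 0.00305 to 0.0949. The dKO call in Jak2V617F was lost without any 1 of these (adjusted p = 0.211, 0.0718 and 0.0723) and without Jak2V617F GLUT1/3 WT clone 3 (0.0596) or Jak2V617F GLUT1/3 dKO clone 3 (0.201). Without Jak2V617F GLUT1/3 dKO clone 3 the background difference among dKO clones passed (adjusted p = 0.0455, range 0.0110 to 0.282).

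Pim3, on chromosome 15 (88746389 to 88749929, forward strand), was below the expression filter and is given by its reads. There were 48 and 24 reads in Jak2WT GLUT1/3 WT (0.499 and 0.570 FPKM), 63 and 93 in Jak2WT GLUT1/3 dKO (0.909 and 0.778 FPKM), 8 and 12 in Jak2V617F GLUT1/3 WT (0.154 and 0.166 FPKM), and 3 and 1 in Jak2V617F GLUT1/3 dKO (0.0356 and 0.0163 FPKM). The 4 groups did not overlap, and in both transporter genotypes Jak2V617F was below Jak2WT, where Pim2 was above it. Scaled for depth, Pim3 was 3.24-fold lower in Jak2V617F among GLUT1/3 WT clones (95% counting interval 1.95 to 5.61) and 30.1-fold lower among dKO clones (11.5 to 112), intervals that cover counting error only. Without Jak2V617F GLUT1/3 dKO clone 1 the latter rested on 1 read and was 50.5-fold (8.94 to 2009). No test is given for Pim3, since a filter on reads takes it in only through the clones where it is high.

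The sum of the 3 PIM mRNAs was 168 to 185 FPKM in the 4 Jak2WT clones, 343 and 299 FPKM in Jak2V617F GLUT1/3 WT, and 236 and 192 FPKM in Jak2V617F GLUT1/3 dKO. All 4 Jak2V617F clones were above all 4 Jak2WT clones. Pim1 held 65.1% to 87.9% of the sum, and the ratio of Pim1 to Pim2 went from 1.87 and 2.51 in Jak2V617F GLUT1/3 WT to 4.35 and 7.54 in Jak2WT GLUT1/3 dKO. Pim3 was at most 0.492% of the sum.

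Osm encodes oncostatin M, a cytokine of the IL-6 family and an early STAT5 target in IL-3 responsive cells, and lies at 4186420 to 4191026 on the forward strand of chromosome 11. Clones of Jak2WT had 6.07 and 4.95 FPKM with GLUT1/3 WT and 14.2 and 10.8 FPKM with dKO, and clones of Jak2V617F had 3.84 and 3.65 FPKM with GLUT1/3 WT and 6.88 and 5.95 FPKM with dKO. In both backgrounds the dKO clones were above the GLUT1/3 WT clones, and within both transporter genotypes the Jak2V617F clones were below the Jak2WT clones. Osm was the one target past the threshold for dKO in both backgrounds, with 1.04 ± 0.14 (SE) in Jak2WT (limma adjusted p = 0.00780) and 0.64 ± 0.14 (SE) in Jak2V617F (limma adjusted p = 0.0155), a 2.26-fold and 1.71-fold rise in mean FPKM. The interaction was -0.40 with a 95% interval from -0.88 to 0.07 (limma adjusted p = 0.228). Jak2V617F was lower among dKO clones, with a difference of -0.85 ± 0.14 (SE, limma adjusted p = 0.00898), and the difference was -0.45 ± 0.14 (SE) among GLUT1/3 WT clones, where it sat at the threshold (limma adjusted p = 0.0510, from 0.0185 to 0.244 over 19 alternatives, of which 11 passed).

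For Osm, the dKO call in Jak2WT was lost without Jak2WT GLUT1/3 WT clone 3 (adjusted p = 0.0601, range over 19 alternatives 0.00341 to 0.0601). The background call among dKO clones was lost without Jak2WT GLUT1/3 dKO clone 1 (adjusted p = 0.0562, range 0.00385 to 0.0562). The dKO call in Jak2V617F was lost without Jak2V617F GLUT1/3 WT clone 1 (adjusted p = 0.0563), Jak2V617F GLUT1/3 WT clone 3 (0.0648) or Jak2V617F GLUT1/3 dKO clone 1 (0.0676), in a range from 0.00608 to 0.0676. The background difference among GLUT1/3 WT clones passed without Jak2WT GLUT1/3 dKO clone 1 (adjusted p = 0.0370) or clone 3 (0.0365). The receptor chains through which oncostatin M signals, Osmr, Lifr and Il6st, were listed at 0 in the group means, apart from 0.00433 FPKM of Lifr in Jak2V617F GLUT1/3 WT.

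Bcl6, a zinc finger repressor of B cells and of stress responses that lies on chromosome 16 (23783802 to 23807602, reverse strand), had 0 to 3 reads in every library. The Jak2WT clones had 1, 1, 2 and 3 reads, the Jak2V617F GLUT1/3 WT clones 0 each, and the Jak2V617F GLUT1/3 dKO clones 1 and 0. The highest value, 0.0105 FPKM, was at the limit of detection, and a difference between groups was not detectable at this depth. Its corepressors were expressed, with Bcor at 3.33 ± 0.210 FPKM in Jak2WT GLUT1/3 WT and 6.55 ± 0.728 FPKM in Jak2V617F GLUT1/3 WT, a difference of 0.80 (limma adjusted p = 0.00189).

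**Figure D4:**
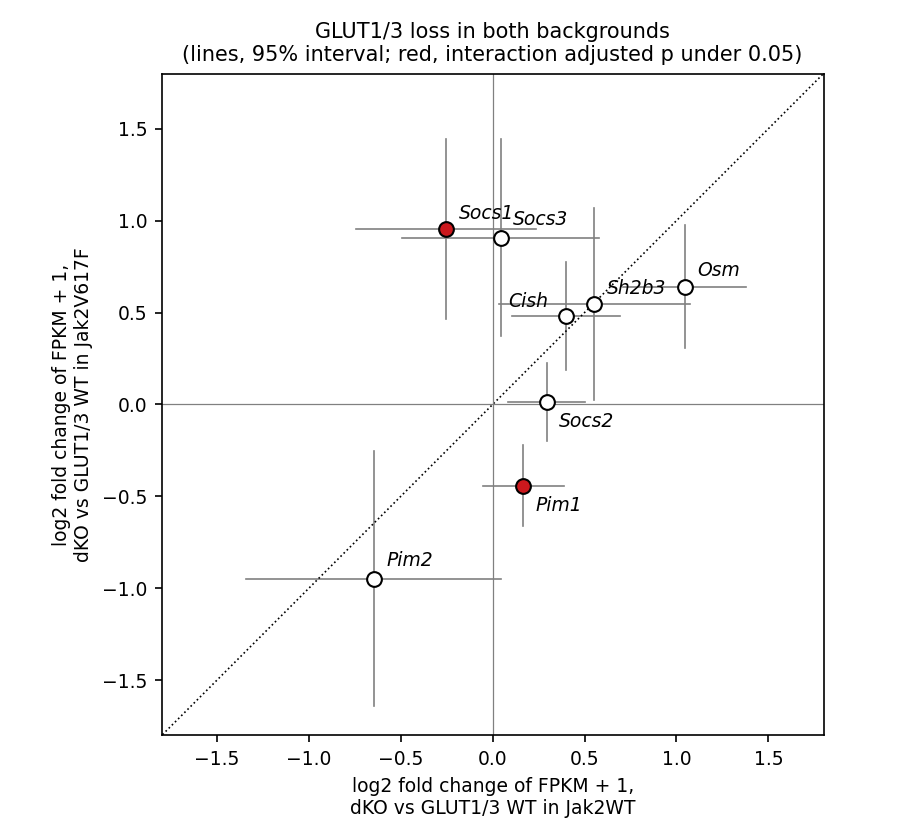
The log2 fold change of FPKM + 1 for dKO against GLUT1/3 WT in Jak2WT (horizontal axis) is plotted against that in Jak2V617F (vertical axis) for the 8 tested targets, with 95% intervals as lines and a dotted line of equal change. Socs1 and Pim1, in red, passed the test of the difference between the axes, and Osm, at 1.04 and 0.64, lies to the right of the dotted line without passing it.

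Among the 8 tested targets, the order of the levels over the libraries differed from gene to gene. Over the 8 libraries, which fall into 4 groups and are therefore not 8 independent points, Pearson's r of log2(FPKM + 1) was -0.95 between Socs1 and Pim1, 0.81 between Pim1 and Pim2, and 0.89 between Cish and Osm. Across all tested genes, those with the profile most like Socs1 were Tsfm (r = 0.99), Gm14117 (0.97) and Ncdn (0.97). Those most like Pim1 were Gm35551, Prmt2 and Dglucy (r = 0.98 each), and those most like Pim2 were Mrpl14, Rbbp9 and Arhgap10 (r = 0.98 each). Cish was closest to Plec (r = 0.98), Slc44a2 and Ripk3 (0.97 each), and Osm to 2310057M21Rik (r = 0.99), Ltbp4 and Hlcs (0.98 each). These are likenesses of profile over shared libraries and carry no test.

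The rest of the pathway was described with 62 further genes in 8 lists, of which 55 were tested. In Jak2V617F against Jak2WT among GLUT1/3 WT clones 13 were higher and 13 lower, where 15.3% of all genes were higher and 14.9% lower. Among dKO clones 10 were higher and 12 lower, against 7.12% and 9.96% of all genes. The lower genes of both comparisons include Jak2, whose reads include the introduced copy. With dKO, 3 were higher and 6 lower in Jak2WT (7.62% and 6.06% of all genes), and 6 were higher and 15 lower in Jak2V617F (13.7% and 16.2%). The interaction passed for 3 in the positive and 5 in the negative direction (4.72% and 5.91%). Their median difference was between -0.10 and -0.04 in these 5 contrasts, and that of all genes between -0.04 and 0.01.

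Of 8 cytokine receptor chains 4 were tested, and 2 were higher and 1 lower between the backgrounds in GLUT1/3 WT clones, and 0 higher and 2 lower with dKO in Jak2V617F, where 30.3% and 29.9% of all genes passed. Csf2rb and Csf2rb2, the signaling chains of the IL-3 receptor, fell by 1.29 and 1.41 with dKO in Jak2V617F (limma adjusted p = 0.00126 and 0.00102), from 129 to 52.1 FPKM and from 159 to 59.4 FPKM, and the interaction passed for both (-0.87 and -0.94). They are near-identical copies, so the division of reads between them is uncertain. Il3ra, the ligand-specific chain, was higher in Jak2V617F among GLUT1/3 WT clones, at 8.82 against 6.72 FPKM (limma adjusted p = 0.0251). Epor, the erythropoietin receptor, was higher in Jak2V617F at 6.40 against 3.78 FPKM among GLUT1/3 WT clones and 7.15 against 3.49 FPKM among dKO clones (limma adjusted p = 0.0105 and 0.00554). Csf2ra was listed at 0.

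All 11 JAK kinases and STATs were tested, and 7 differed between the backgrounds in GLUT1/3 WT clones, 2 higher and 5 lower, against 15.3% of all genes higher and 14.9% lower. The lower genes include Jak2 itself (-0.84, limma adjusted p = 0.00120), whose reads include the introduced copy that defines the backgrounds. Stat4 met the filter only through Jak2WT, with 1.97 and 2.05 FPKM in GLUT1/3 WT clones against at most 0.0743 FPKM in Jak2V617F. Stat5b was lower in Jak2V617F, with a difference of -0.48 (11.8 ± 1.49 against 16.8 ± 0.981 FPKM, limma adjusted p = 0.0147), and so was Stat5a, with -0.41 (limma adjusted p = 0.0166), while Stat3 and Jak3 were higher by 0.80 and 0.97 (limma adjusted p = 0.00177 and 0.00129). With dKO in Jak2V617F, Stat5a rose by 0.34 and Stat3 fell by 0.46 (limma adjusted p = 0.0319 and 0.0126). Stat5b went from 11.8 to 9.30 FPKM without overlap of the clones, a difference of -0.31 that did not pass (limma adjusted p = 0.0672).

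Of 10 tested further STAT5 targets, 5 were higher and 3 lower in Jak2V617F among GLUT1/3 WT clones, where 30.3% of all genes passed in either direction, and 3 were higher and 2 lower with dKO in Jak2V617F, where 29.9% passed. The anti-apoptotic genes did not move together. Bcl2l1 was higher in Jak2V617F by 1.25 (43.9 ± 5.92 against 17.9 ± 2.30 FPKM, limma adjusted p = 0.00340), Bcl2 was lower, with a difference of -1.90 (19.2 ± 3.08 against 73.9 ± 1.47 FPKM, limma adjusted p = 0.00189), and Mcl1 was higher by 0.45 (limma adjusted p = 0.0109). Myc and Mcl1 were both higher in Jak2V617F among GLUT1/3 WT clones, fell by 0.47 and 0.36 with dKO in Jak2V617F, and had an interaction of -0.72 and -0.52 (limma adjusted p = 0.0248 and 0.0462). Il2ra, a gene of activated lymphoid and mast cells, was 25.1 ± 2.78 FPKM in Jak2WT GLUT1/3 WT and 0.379 ± 0.146 FPKM in Jak2V617F GLUT1/3 WT, beside the difference in Cpa3 given above. Id1, an inhibitor of differentiation factors, was higher in each of the 4 comparisons, by 0.66 to 0.76.

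**Figure D5:**
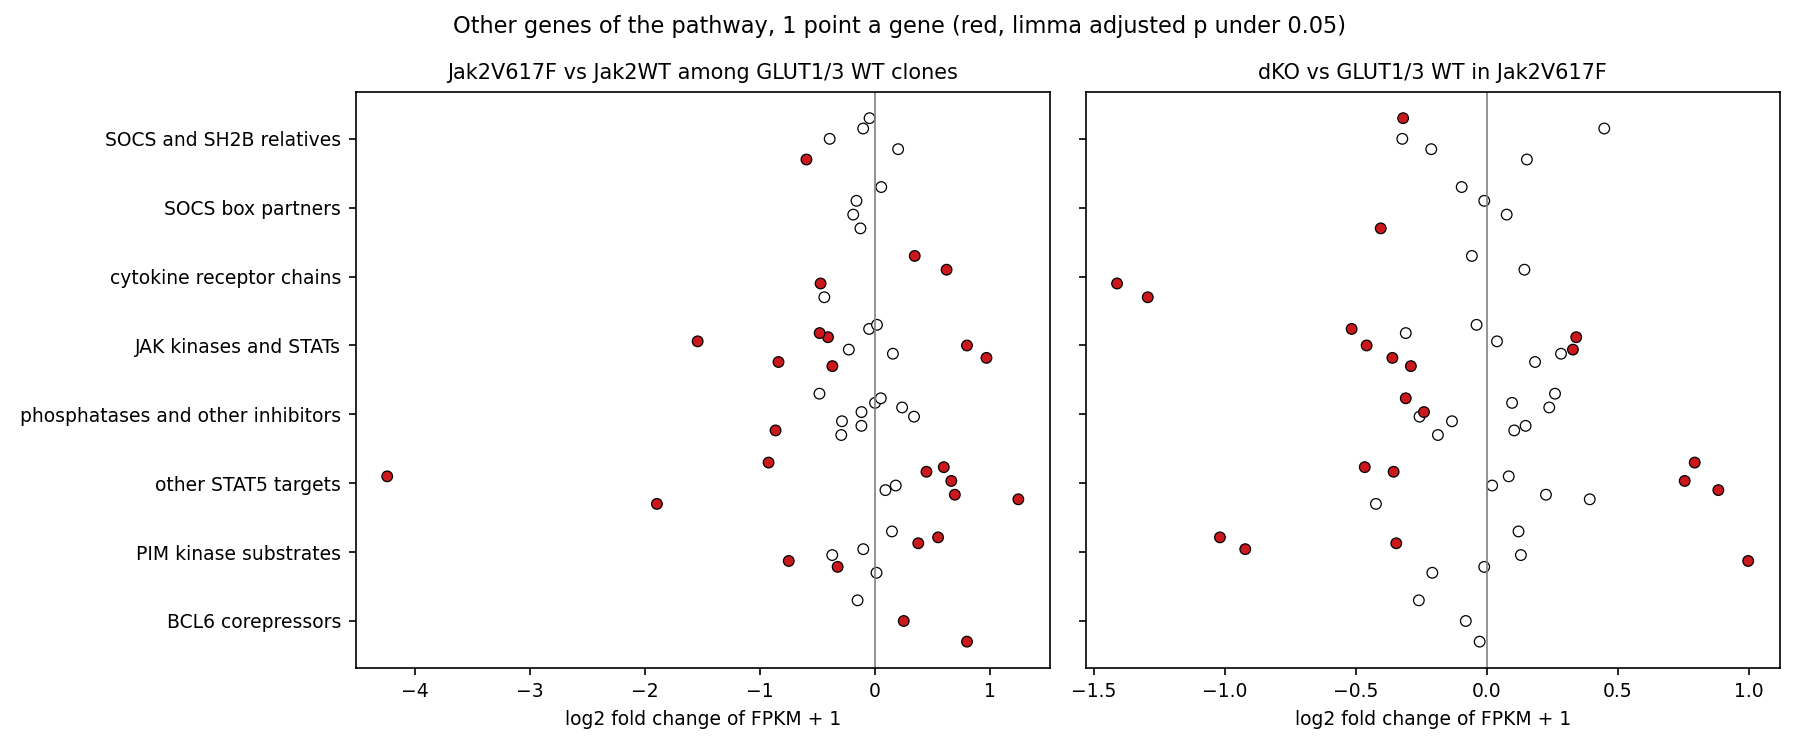
Each point is 1 gene of the 8 further pathway lists (rows), placed by its log2 fold change of FPKM + 1 in Jak2V617F against Jak2WT among GLUT1/3 WT clones (left) and in dKO against GLUT1/3 WT in Jak2V617F (right), red where the adjusted p passed. The axes of the panels differ, Il2ra at -4.24 and Bcl2l1 at 1.25 mark the ends on the left, and most lists hold points on both sides of 0.

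Among relatives and partners of the feedback genes, 1 of 5 tested SOCS and SH2B relatives passed in each of the 4 comparisons, where 30.3%, 17.1%, 13.7% and 29.9% of all genes did. Of these 5, Sh2b1 alone was called between the backgrounds in GLUT1/3 WT clones (-0.60, limma adjusted p = 0.00710), Socs5 in dKO clones (-0.92, limma adjusted p = 0.00609), Socs6 with dKO in Jak2WT (0.70, limma adjusted p = 0.0370) and Socs7 with dKO in Jak2V617F. Of the 4 components of the ligase that the SOCS box recruits, Cul5, the scaffold, was lower with dKO in Jak2V617F (-0.40, limma adjusted p = 0.0112) and lower in Jak2V617F between dKO clones (-0.31, limma adjusted p = 0.0418), and Elob, Eloc and Rnf7 were not called in any comparison. Among 10 phosphatases and other inhibitors, 1 was lower between the backgrounds in GLUT1/3 WT clones (Cblb, -0.86, limma adjusted p = 0.00433), where 14.9% of all genes were lower, and 2 were lower with dKO in Jak2V617F, where 16.2% were. Of 8 PIM substrates, 2 were higher and 2 lower between the backgrounds in GLUT1/3 WT clones (30.3% of all genes either way), 0 were higher and 3 lower with dKO in Jak2WT (13.7%), and 1 was higher and 3 lower with dKO in Jak2V617F (29.9%). Cdkn1b, the cell cycle inhibitor p27, was lower with dKO in both backgrounds, at 22.8 against 50.8 FPKM in Jak2WT and 24.6 against 47.3 FPKM in Jak2V617F (limma adjusted p = 0.00576 and 0.00299). Cdc25a, a phosphatase that drives the cell cycle, was the one that was higher with dKO in Jak2V617F, at 9.95 against 4.49 FPKM (limma adjusted p = 0.00144). Eif4ebp1, the translation repressor 4E-BP1, was higher in Jak2V617F among GLUT1/3 WT clones (0.55) and lower with dKO in Jak2V617F (-1.02, limma adjusted p = 0.00627 and 0.000713).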

How the data were processed

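RNA of 8 clones of 32D cells was enriched for poly-A and sequenced in pairs. The submitters' processing notes name the build mm39, featureCounts 2.0.6, HISAT2 2.2.1 and fastp 1.0.1. The deposited values are FPKM, for 56748 genes. The annotation version, the strand setting and the total behind FPKM are not given in the sources used here. All 8 library columns were used, assigned by the labels.

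FPKM times gene length was a whole multiple of 1 step in each library for 100% of values (tolerance 0.01 of a step), which gave 16846011 to 48884329 reads per library, and a floor of 3 reads was used. The 11818 genes that reached 1 FPKM in 2 or more libraries were tested on the scale log2(FPKM + 1) by limma 3.58.1 (R 4.3.3), with a trend in the empirical Bayes step and 1 mean per group (4 residual and 3.34 prior degrees of freedom). Benjamini-Hochberg adjusted p under 0.05 was called. Clones are single-cell derivatives of lines, so p-values measure the spread between these clones. The study lists the same GLUT1 deletion for all dKO clones of a background, and a different one in the other background. Whether the dKO clones of a background share a founder is not stated, and an effect of such a founder cannot be told apart from loss of GLUT1/3. Both clones of each group were distinct beyond sampling noise (chi-square per gene 6.64 to 27.1), so none was counted as a repeat. The members and gene lists were chosen with earlier results of these data known. Named genes are the 10 members, Slc2a1, Slc2a3, Jak2, the genes of the pathway and marker lists, and the 3 genes closest to a member in profile. Alternatives were a pseudocount of 0.1, no filter or a filter on mean FPKM, no trend or a robust fit, scaling to equal totals or by median ratio, limma voom on the recovered reads, only the groups compared, the clone number as a block, and leaving out each library. A voom fit of genes with at least 10 reads in at least 2 libraries, which takes in Pim3, was added after seeing the data. On simulated data for Jak2V617F against Jak2WT among GLUT1/3 WT clones (11818 genes, 200 changed 2-fold), the test recovered 174 (87%) and called 22 others, voom recovered 181, and with no change simulated 1 was called. The simulation used 1 fixed dispersion for all genes and no other differences between clones. Its counts therefore check the code and do not measure recovery or false calls in the real clones. Promoter windows came from RefSeq (GRCm38.p6). Intervals on reads cover counting error only. Figures were drawn with matplotlib 3.10.9 in Python 3.11.15. One gene of the receptor list is not reported here.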

Additional observations from a re-analysis of the deposited data

Results flagged for a closer look

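For 2 targets the response to loss of GLUT1/3 differed between the backgrounds by the interaction test, which 10.6% of all genes passed. For Pim1 the interaction was -0.61 (limma adjusted p = 0.0331), with lower values in both Jak2V617F dKO clones and higher values in both Jak2WT dKO clones than in the GLUT1/3 WT clones of the background. For Socs1 it was 1.21 (limma adjusted p = 0.0447), with higher values in both Jak2V617F dKO clones and overlapping clones in Jak2WT. The range of these adjusted p values over the alternatives was 0.0312 to 0.125 for Pim1 and 0.0147 to 0.143 for Socs1. The call was lost in 9 of 18 alternatives for Pim1 and in 10 of 18 for Socs1, and leaving out any 1 clone left 0 or 1 of the targets past the threshold.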

How the results depend on the processing

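Of the 13 results of single targets that passed, 2 passed under each alternative, the higher Pim1 and the lower Socs1 of Jak2V617F among GLUT1/3 WT clones. Over 752 values of 40 results, 637 kept their direction and side of the threshold, 56 lost the call and 37 gained it. The other 22 changed direction, in 7 results, none of which had passed, and the cause was not tested. Socs3 with dKO in Jak2WT was -0.031 with equal totals and -0.12 with voom on either set of genes, and the interaction of Sh2b3 was 0.17 with equal totals, 0.030 with median ratios, 0.15 with voom and 0.15 with voom on genes of at least 10 reads. Leaving out 1 clone, the range between the backgrounds was -0.35 to 0.034 for Socs3 in GLUT1/3 WT clones and -0.30 to 0.015 for Cish in dKO clones. It was -0.14 to 0.23 for Socs3 with dKO in Jak2WT, -0.036 to 0.059 for Socs2 with dKO in Jak2V617F, and -0.074 to 0.24 (Cish), -0.68 to 0.073 (Pim2) and -0.37 to 0.36 (Sh2b3) for the interaction.

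The number of targets called was 3, 1, 1, 6 and 2 in the background comparisons of GLUT1/3 WT and dKO clones, the dKO comparisons in Jak2WT and Jak2V617F, and the interaction. Without 1 clone it ran over 2 to 4, 0 to 4, 0 to 3, 1 to 6 and 0 to 1, and the number of all genes over 1583 to 3969, 620 to 1992, 110 to 1974, 2131 to 2985 and 5 to 1256, from 3577, 2019, 1617, 3533 and 1256. Without a filter, which takes in Pim3 and Bcl6, counts of targets between the backgrounds are not given. In that fit 1 target passed with dKO in Jak2V617F and 0 in the interaction (3 with voom, and 3 at an unadjusted p under 0.05 with the filter). Of all genes, 714 passed there for dKO in Jak2WT and 346 for the interaction. With equal totals, 2 targets passed between the dKO clones and 1 in the interaction. With voom, 3 passed between the dKO clones, with 2605 of all genes for dKO in Jak2WT and 1896 for the interaction. On genes of at least 10 reads, 2612 of all genes passed for dKO in Jak2WT. Counts of targets between the backgrounds are not given for that fit, since Pim3 enters it through its reads in Jak2WT. With only the groups compared, 5 targets passed between backgrounds among GLUT1/3 WT clones, 3 with dKO in Jak2WT and 2 with dKO in Jak2V617F, with 1028 of all genes between dKO clones and 1617 for dKO in Jak2V617F.

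Scaling to equal totals moved the median of all genes to -0.12 between the backgrounds among GLUT1/3 WT clones and to 0.12 in the interaction. The share of calls that were higher went from 50.7% to 29.4% and from 44.4% to 75.0% there, from 55.7% to 33.9% with dKO in Jak2WT and from 45.7% to 60.2% with dKO in Jak2V617F.

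Clone numbers 1 and 3 recur in the groups, but differences between clones did not go together (correlations of -0.25 to 0.15 over 6 pairs of groups). The numbers were treated as names, although these correlations cannot show whether clones of the same number shared a batch. With the clone number as a block, 3 targets passed between the dKO clones and 2 with dKO in Jak2WT, the interaction of Socs1 did not (adjusted p = 0.0663), and that of Socs3 did (adjusted p = 0.0308). Socs1 rests on few reads in Jak2V617F GLUT1/3 WT, Pim3 in both Jak2V617F groups, and Bcl6 on at most 3 reads.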
